A study of Homo sapiens with 6 samples.

Results

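The genes described here are 60 neighbours on chromosome 5, from TENT4A and SRD5A1 in band 5p15, across the centromere, to TNPO1 in band 5q13. They were listed with results of this experiment known, and were chosen by the same log2 differences between the groups that are given below, as genes of a chromosome segment where most values were higher with laminin α1. The arrays hold 18417 genes with a probe set of their own, and 57 of the 60 listed genes are among them. DAP, PDZD2 and AMACR have no probe set that the platform annotation gives to their symbol alone. A level filter at the 25th percentile of all genes, log2 5.50, left 50 of the 57 for the fit and 7 below it. Of the 60 genes, 46 lie on the short arm, 5p, and 14 on the long arm, 5q.

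The samples are HT29, an established aneuploid line from a human colorectal adenocarcinoma, on 6 arrays. In 3 arrays the cells carried a Control expression construct and in 3 a Laminin α1 expression construct, which encodes a subunit of the basement membrane glycoprotein laminin. Each group has 3 independent culture passages, grown for 7 days. The host line, growth time and RNA preparation are the same in both groups, while it was not stated if a group is 1 clone or a pool, nor which vector and promoter drove the construct. Values are log2 expression per probe set, so a difference of 1 is a doubling, and differences are laminin α1 minus control. LAMA1, the gene for that subunit, measured 5.71, 5.63 and 5.60 with the control construct and 5.79, 5.72 and 5.71 with laminin α1. Its difference of 0.09 (SE 0.06) was not called by limma (adjusted p = 0.535), so it does not check the labels.

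All 12 markers of intestinal epithelium had a mean over the 6 arrays above the level filter. The mean level of the 12 was 10.10 to 10.21 in control and 9.85 to 9.87 in laminin α1 samples. In limma 4 of the 12 were lower and 0 higher, namely CDH17, CEACAM5, KRT20 and LGALS4, and the part of this in the differences below was not tested. CDH17 passed the filter only through its control values of 6.52, 6.61 and 6.62. With laminin α1 it measured 4.81, 4.95 and 5.04, below the filter at log2 5.50. Fibroblast markers had a mean of 5.56 to 5.65 and 5.57 to 5.64, endothelial markers 5.28 to 5.33 and 5.30 to 5.35, and blood cell markers 5.32 to 5.37 and 5.29 to 5.40. Of the fibroblast list, COL1A1 had 7.26 to 7.44 over the 6 arrays, COL1A2 6.31 to 6.57, COL3A1 6.14 to 6.35 and PDGFRB 6.05 to 6.23, while DCN and LUM reached at most 3.74 and 3.84. Of the blood list, PTPRC, the common leukocyte antigen, reached at most 3.75. CD14, a monocyte gene, measured 6.85, 6.98 and 6.95 with the control construct and 7.32, 7.05 and 7.02 with laminin α1, without overlap but not called by limma (adjusted p = 0.284). Of 13812 genes tested with limma, 372 were higher in the laminin α1 arrays at an adjusted p under 0.05, which is 2.69%, and 358 were lower, which is 2.59%. Leaving out control replicate 2 gave 209 and 196, and leaving out laminin α1 replicate 2 gave 237 and 192. Without control replicate 1 the lower count was 235, and it was 681 when laminin α1 replicate 3 was dropped. The median difference over all genes tested was -0.01.

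Neighbours on a chromosome need not share a function, and these do not form a pathway. The segment holds the genes of 3 receptors of the interleukin 6 family, LIFR, OSMR and IL6ST, and 2 receptors of the same wider cytokine class, PRLR and GHR. It also holds single subunits of large machines whose other parts are encoded elsewhere, such as CCT5 of the CCT chaperonin, CDK7 of the kinase that activates cell cycle kinases and RNA polymerase II, and NIPBL, which loads cohesin onto DNA. This makes it possible to set a gene of the segment beside the partners of its product.

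Some neighbours start back to back and share the stretch between their start sites. RAD1, a subunit of the clamp that signals DNA damage, and BRIX1, a factor of large ribosomal subunit assembly, are divided by 206 bases. ERCC8, which acts in repair of transcribed DNA, and NDUFAF2, an assembly factor of respiratory complex I that is no listed gene, are divided by 134 bases. The lines below give these stretches on the plus strand and, for PRLR, ARL15, IL6ST and TNPO1, the 250 bases before the start, all from RefSeq on GRCh38.p14. The first 3 of these genes had the highest differences apart from MAP3K1, which is named only. Capitals mark a CCAAT box (CCAAT or ATTGG) and a GC box (GGGCGG or CCGCCC), on either strand, and none of the marked matches overlap.
RAD1 to BRIX1 (chr5:34915505-34915710): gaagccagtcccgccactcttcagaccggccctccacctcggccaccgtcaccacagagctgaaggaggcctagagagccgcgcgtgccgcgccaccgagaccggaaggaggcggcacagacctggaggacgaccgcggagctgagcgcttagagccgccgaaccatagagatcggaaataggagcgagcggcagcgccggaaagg
ERCC8 to NDUFAF2 (chr5:60945071-60945204): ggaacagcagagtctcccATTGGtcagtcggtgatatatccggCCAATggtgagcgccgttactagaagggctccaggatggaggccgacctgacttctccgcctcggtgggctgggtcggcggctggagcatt
PRLR (chr5:35230488-35230737, minus strand): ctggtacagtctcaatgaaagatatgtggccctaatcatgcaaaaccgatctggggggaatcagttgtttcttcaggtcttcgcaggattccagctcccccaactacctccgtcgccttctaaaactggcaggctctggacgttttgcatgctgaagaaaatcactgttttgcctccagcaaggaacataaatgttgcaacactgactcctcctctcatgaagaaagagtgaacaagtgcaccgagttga
ARL15 (chr5:54310574-54310823, minus strand): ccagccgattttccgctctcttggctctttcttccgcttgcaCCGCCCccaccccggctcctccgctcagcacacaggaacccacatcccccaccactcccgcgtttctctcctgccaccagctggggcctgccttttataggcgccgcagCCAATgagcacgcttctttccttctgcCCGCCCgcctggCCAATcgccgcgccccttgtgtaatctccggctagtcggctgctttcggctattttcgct
IL6ST (chr5:55994964-55995213, minus strand): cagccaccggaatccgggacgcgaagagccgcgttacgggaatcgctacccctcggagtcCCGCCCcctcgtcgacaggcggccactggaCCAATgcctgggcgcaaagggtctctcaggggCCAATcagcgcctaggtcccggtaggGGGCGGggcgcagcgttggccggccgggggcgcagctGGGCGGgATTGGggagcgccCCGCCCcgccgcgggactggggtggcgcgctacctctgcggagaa
TNPO1 (chr5:72816411-72816660, plus strand): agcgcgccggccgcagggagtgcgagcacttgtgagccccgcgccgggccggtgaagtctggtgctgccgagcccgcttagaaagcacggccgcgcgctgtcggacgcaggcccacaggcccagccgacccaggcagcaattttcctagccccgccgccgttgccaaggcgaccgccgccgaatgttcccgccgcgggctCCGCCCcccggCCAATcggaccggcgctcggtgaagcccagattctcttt

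The printed starts have little in common. PRLR holds neither box, ARL15 holds 2 of each, IL6ST holds 3 CCAAT and 4 GC boxes, and TNPO1, the gene at the end of the interval whose value was lower, holds 1 of each. Promoter entries of RefSeq were matched for 52 of the 60 genes. The outermost entry of each was taken, which for 4 of them, CCT5, ZNF131, PRKAA1 and LIFR, does not start at the outer end of the gene. In the 250 bases before that start 34.6% had a CCAAT box, against 33.0% of 27195 genes with an entry, and 63.5% had a GC box, against 42.3%. A TATAAA was found in 3.85% against 11.2%. The STAT-type motif TTCNNNGAA was found in 9.62% against 6.77%. The median GC content of the stretch was 66.2% against 57.6%. The 27195 genes were not limited to those on the arrays or above the level filter, while most of the 52 lay above it. The sets are thus unlike, and these gaps were not tested.

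Most of the tested genes were higher in the laminin α1 arrays by less than 1 log2 unit, most of them by far less. Of 50 tested genes, 43 had a positive difference, where 45.6% of all genes tested did. Their median was 0.22, with quartiles of 0.12 and 0.31 and a range between -0.28 and 0.80. Over all genes tested the quartiles were -0.09 and 0.06. On the single arrays the median deviation of the 50 genes from their control mean came to -0.04, -0.03 and 0.05 for control and to 0.15, 0.18 and 0.27 for laminin α1, so the groups did not overlap. In such bulk samples, a change in the share of cells that express a gene and a change in RNA per cell cannot be told apart. The arrays with replicate number 3 were the highest of both groups: 35 of the 50 genes stood above their control mean in control replicate 3, against 18 and 13 in control replicates 1 and 2. In the laminin α1 arrays 42, 43 and 44 did. The labels give no batch for these numbers, and their part in the differences was not tested.

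**Figure D1:**
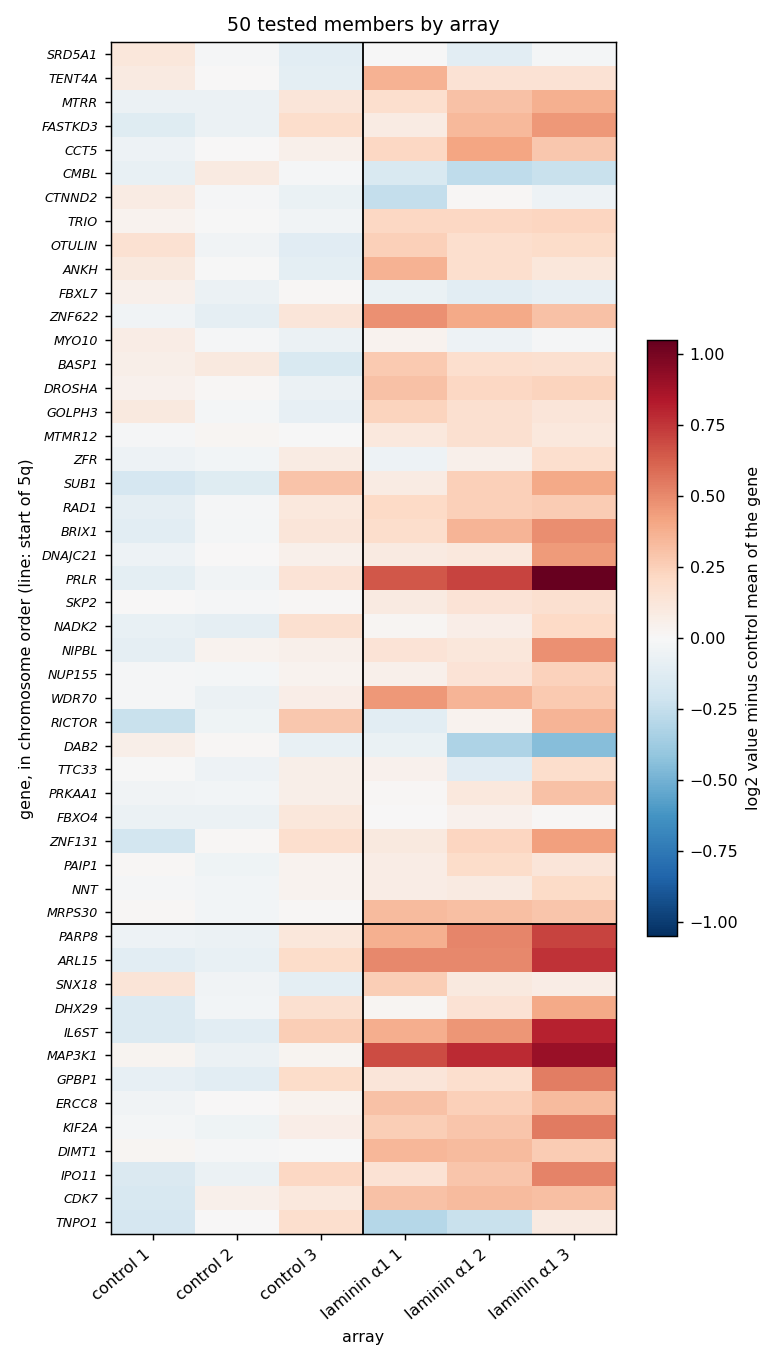
Each row is one of the 50 tested listed genes (members) in chromosome order and each column an array, and the colour is the log2 value minus the control mean of that gene. Red prevails in the 3 laminin α1 columns, most strongly below the line that marks the start of 5q. CMBL, DAB2 and FBXL7 on 5p are blue in all of these columns, and TNPO1 on 5q in the first 2.

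Of the 50 genes, 12 were called higher and 0 lower at an adjusted p under 0.05 in the limma fit over all genes, beside a background of 2.69% called higher. The 3 laminin α1 arrays lay wholly above the 3 control arrays for 30 of the 50 genes, beside 10.1% of all genes tested, and wholly below for 2, CMBL and FBXL7, beside 11.5%. In either direction 21.6% of all genes were separate. At an unadjusted p under 0.05 limma had 30 higher and 2 lower among the 50, beside 7.91% and 8.81% of all genes tested. Since these genes were listed from the same contrast, the counts describe them and test nothing. The count of 12 rests on single arrays: it was 6 without control replicate 1, 4 without control replicate 2 and also 4 when laminin α1 replicate 2 was dropped. PRLR, PARP8, ARL15 and MAP3K1 were called whichever array was left out. Of the 6 fits that left out 1 array, MRPS30 was called in 4, ZNF622, WDR70, IL6ST, ERCC8 and DIMT1 in 3, and CCT5 and KIF2A in 2. The calls of CCT5 and KIF2A were lost without any 1 of the control arrays and without laminin α1 replicate 2. The median difference moved only between 0.19 and 0.24 over the 14 other settings tried.

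The receptors held the highest value of all. PRLR, the prolactin receptor, had values of 6.61, 6.68 and 6.86 with the control construct and 7.37, 7.43 and 7.76 with laminin α1. Every laminin α1 array was above every control array, with a difference of 0.80 (SE 0.11), or 1.74-fold. IL6ST encodes gp130, a signalling chain shared by receptors of the interleukin 6 family. It had values of 8.54, 8.56 and 8.93 with the control construct and 9.06, 9.14 and 9.49 with laminin α1, a difference of 0.55 (SE 0.13). The groups did not overlap, although control replicate 3 came within 0.13 of the lowest laminin α1 array. The other receptor genes were at low signal. LIFR and OSMR, which pair with gp130, GHR, the growth hormone receptor, and NPR3, the clearance receptor of natriuretic peptides, had mean levels below the filter. Their differences were -0.07, 0.08, -0.07 and 0.05, and their groups overlapped.

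The 6 tested genes of kinases and signalling had a median of 0.18, with MAP3K1 the highest. MAP3K1, a kinase at the head of stress kinase cascades, had values of 9.71, 9.62 and 9.71 with the control construct and 10.36, 10.46 and 10.58 with laminin α1. The difference was 0.79 (SE 0.07), or 1.73-fold, with a gap of 0.65 between the highest control and the lowest laminin α1 array. ARL15, a small GTPase of the ARF-like family, had values of 8.11, 8.15 and 8.42 with the control construct and 8.73, 8.73 and 8.99 with laminin α1, a difference of 0.59 (SE 0.10) with no overlap. PRKAA1, a catalytic subunit of the energy sensor AMPK, differed by 0.14 (SE 0.08) and RICTOR, the defining subunit of the kinase complex mTORC2, by 0.09 (SE 0.14), and both overlapped between groups. TRIO was higher by 0.22 (SE 0.06) on all 3 arrays. DAB2, an adaptor of clathrin-mediated endocytosis, went the other way, with 6.55, 6.50 and 6.42 with the control construct and 6.42, 6.17 and 6.05 with laminin α1 and a difference of -0.28 (SE 0.10), the lowest of the 50. Its groups met, since laminin α1 replicate 1 and control replicate 3 both rounded to 6.42.

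All 8 genes of translation and ribosome assembly had positive differences, from 0.13 to 0.39, with a median of 0.31, and 4 were called higher: ZNF622, CCT5, DIMT1 and MRPS30. Of all 50 tested listed genes, 43 were positive and 12 called higher, beside 45.6% and 2.69% of all genes tested. ZNF622, a zinc finger protein that acts late in large subunit maturation, had values of 6.68, 6.62 and 6.84 with the control construct and 7.19, 7.11 and 7.02 with laminin α1, a difference of 0.39 (SE 0.08). CCT5, 1 subunit of the chaperonin that folds actin and tubulin, had values of 11.34, 11.39 and 11.44 with the control construct and 11.61, 11.81 and 11.67 with laminin α1, a difference of 0.31 (SE 0.07). MRPS30, a protein of the mitochondrial ribosome, and DIMT1, a methyltransferase of small subunit RNA, differed by 0.31 (SE 0.06) and 0.31 (SE 0.06). These levels were separate between groups in each of the 4 genes. BRIX1 had values of 9.67, 9.77 and 9.91 with the control construct and 9.96, 10.14 and 10.27 with laminin α1, a difference of 0.34 (SE 0.09) without overlap. DNAJC21, a cochaperone of large subunit maturation, differed by 0.22 (SE 0.10). PAIP1, which binds the poly(A)-binding protein, and DHX29, a helicase of translation initiation, had 0.13 and 0.19, and DHX29 was the only gene of the 8 whose groups overlapped.

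Genome maintenance and transcription genes were positive in 9 of 9, between 0.24 and 0.53, and PARP8, WDR70 and ERCC8 were called higher. Here too the comparison is 43 positive and 12 called of the 50 listed genes, and 45.6% and 2.69% of all genes tested. PARP8, an ADP-ribosyltransferase, had values of 7.45, 7.43 and 7.62 with the control construct and 7.87, 8.02 and 8.21 with laminin α1, a difference of 0.53 (SE 0.09). ERCC8 had values of 5.67, 5.71 and 5.74 with the control construct and 6.01, 5.96 and 6.04 with laminin α1, a difference of 0.30 (SE 0.06). Both were separate between groups. WDR70, a WD repeat protein, differed by 0.36 (SE 0.07). The other 6 differed by 0.24 for RAD1, 0.32 for CDK7, 0.24 for the transcriptional coactivator SUB1, 0.25 for NIPBL, 0.28 for the promoter-binding protein GPBP1 and 0.25 for the zinc finger protein ZNF131. SUB1, GPBP1 and ZNF131 overlapped between groups, and in each control replicate 3 was the highest control array and above laminin α1 replicate 1.

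The 4 RNA processing genes had a median of 0.24. DROSHA, the nuclease that makes precursor microRNAs, had values of 9.21, 9.18 and 9.10 with the control construct and 9.47, 9.38 and 9.39 with laminin α1, a difference of 0.25 (SE 0.06). TENT4A, a noncanonical poly(A) polymerase, differed by 0.22 (SE 0.08) and FASTKD3, a mitochondrial RNA-binding protein, by 0.30 (SE 0.11). ZFR, a zinc finger RNA-binding protein, stayed near the controls at 0.06 (SE 0.08). None of these 4 was called. In nuclear transport, the importin IPO11 differed by 0.32 (SE 0.12) and the pore subunit NUP155 by 0.15 (SE 0.07). TNPO1, a transportin that imports RNA-binding proteins, had values of 10.66, 10.84 and 11.02 with the control construct and 10.54, 10.60 and 10.93 with laminin α1, a difference of -0.15 (SE 0.12) with overlapping groups.

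Differences of both signs were seen among the tested metabolic and ubiquitin genes, and none of these was called. Of 5 tested metabolic genes, MTRR, which reactivates methionine synthase, differed by 0.29 (SE 0.08), and NNT, the proton-driven transhydrogenase of mitochondria, and NADK2, the mitochondrial NAD kinase, by 0.12 and 0.10. SRD5A1, a steroid 5-alpha reductase, had -0.05 (SE 0.08). CMBL, a hydrolase of liver and gut, had values of 9.60, 9.77 and 9.66 with the control construct and 9.52, 9.42 and 9.45 with laminin α1, wholly lower, with a difference of -0.22 (SE 0.07). OXCT1, which lets mitochondria use ketone bodies, was below the level filter (-0.07). Of the ubiquitin genes, the linear-chain deubiquitinase OTULIN and the F-box protein SKP2 differed by 0.21 and 0.14 without overlap. FBXO4 had 0.02 and FBXL7 -0.09, the latter wholly lower.

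The tested transport and trafficking genes GOLPH3 of the Golgi, ANKH, MTMR12 and SNX18 differed by 0.17, 0.22, 0.13 and 0.15. SLC1A3, a glutamate transporter, and EMB, a chaperone of monocarboxylate transporters, were below the filter, at -0.02 and 0.16. Of the cytoskeletal genes, KIF2A, a kinesin that takes microtubules apart, had values of 9.92, 9.89 and 10.01 with the control construct and 10.20, 10.23 and 10.49 with laminin α1, a difference of 0.37 (SE 0.09) and a call. BASP1, a membrane-bound signalling protein, differed by 0.21 (SE 0.08). MYO10, the myosin of filopodia, had -0.01 (SE 0.07) and CTNND2, a delta-catenin, -0.10 (SE 0.08), and both overlapped. TTC33, a repeat protein of little known function, had 0.04 (SE 0.08).

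**Figure D2:**
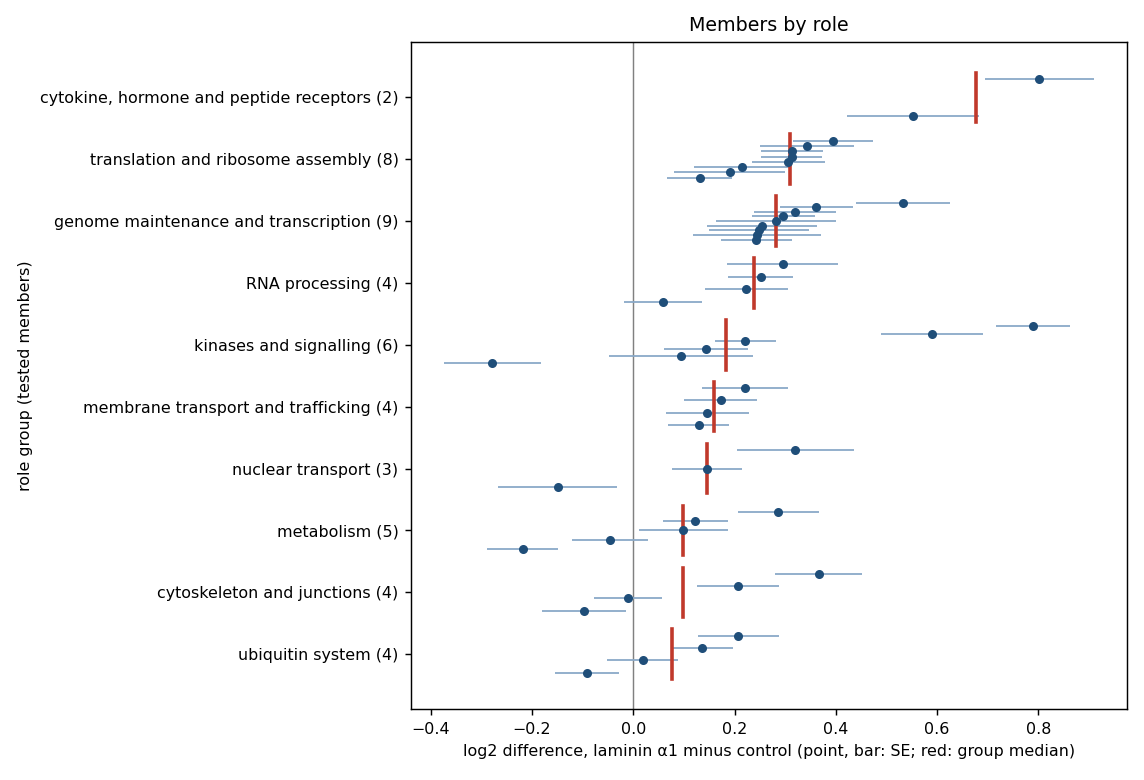
Points are the log2 differences of the tested genes by role, with bars of 1 SE, and red lines are group medians. The medians run from 0.08 in the ubiquitin system to 0.68 in the 2 tested receptors. TTC33, alone in its role at 0.04, is not drawn.

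The 7 genes below the level filter had small differences of both signs. These differences lay between -0.07 and 0.16, the highest for EMB. All 7 overlapped between groups, and none was called when all 18417 genes were tested, where 4.21% were called in either direction. Among the 50 tested genes, the 43 with a mean level above the 50th percentile of all genes on the array, log2 7.06, had a median difference of 0.22 and the 7 at or below it 0.04. This split was chosen after the data had been seen. Across the 50 genes, which share the 6 arrays, the correlation of the difference with the mean level was 0.04 (Pearson's r) and 0.02 (Spearman's rank correlation).

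Further probe sets were scarce. A probe set shared by AMACR, a racemase of branched fatty acid breakdown, and a readthrough transcript measured 7.95, 7.92 and 7.88 with the control construct and 8.20, 8.10 and 8.03 with laminin α1, without overlap. The difference was 0.19 (SE 0.07). Limma run on all 33297 probe sets did not call it (adjusted p = 0.286), and there 1.83% of probe sets were called in either direction. CDK7 is listed for 2 probe sets whose 6 values are identical, so they count as 1 measurement. The second probe set of NPR3 differed by -0.03, also at low signal.

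The listed genes had higher median values on the long arm. The 37 tested genes on 5p had a median of 0.21, with 5 called higher, and the 13 on 5q a median of 0.32, with 7 called higher, beside 2.69% of all genes tested. On the single arrays the 5q genes had a median deviation of 0.31, 0.29 and 0.52 with laminin α1 against -0.09, -0.05 and 0.12 in control. For the 5p genes these were 0.09, 0.16 and 0.21, and -0.01, -0.02 and 0.04. The difference between the arms was not tested.

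**Figure D3:**
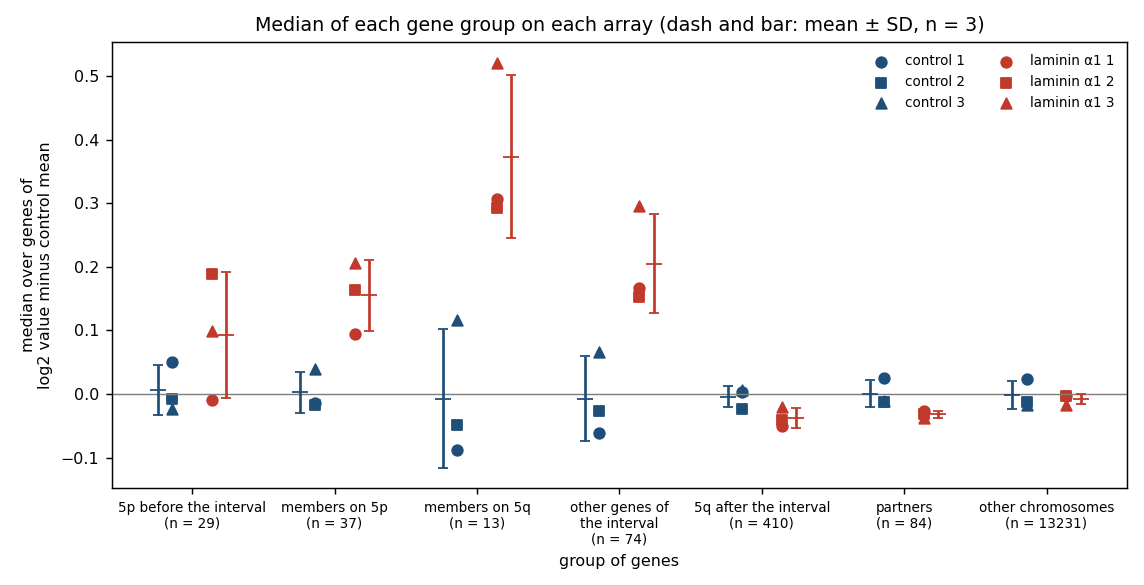
Each symbol is the median, over the genes of a group, of the log2 value minus the control mean on 1 array, and dashes with bars are the mean ± SD of 3 arrays. The laminin α1 arrays lie above the control arrays for the listed genes on 5p and 5q and for the other genes of the interval, and near or below 0 for 5q after the interval and for the partners.

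RefSeq order places 74 further tested genes between SRD5A1 and TNPO1 that were not listed, and most of these were positive too. Their median was 0.21, 55 of 74 had a positive difference, and 17 were called higher and 0 lower by limma, or 23.0% beside 2.69% of all genes tested. These counts include genes that passed the level filter, log2 5.50, only through the laminin α1 arrays. SGTB, called higher, had means of 5.33 in control and 5.74 with laminin α1. CARD6, positive but not called, had 5.35 and 5.69. At an unadjusted p under 0.05, 36 were higher and 2 lower, beside 7.91% and 8.81% of all genes. The 50 genes with a mean above log2 7.06 had a median of 0.27 and the 24 at or below it 0.04, and without the level filter the median over all 128 such genes was 0.0613. Without control replicate 2, 10 were called higher. On 5p 3 of 27 were called, with a median of 0.09, and on 5q 14 of 47, with a median of 0.32. ITGA2 and CCNB1 had been reported from these arrays before, and the shift of this stretch was known, so this is no independent evidence.

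The highest value among them belonged to ADAMTS6, a secreted metalloproteinase, with 6.69, 6.84 and 6.77 with the control construct and 7.88, 7.87 and 8.06 with laminin α1. The difference was 1.17 (SE 0.08), or 2.25-fold (adjusted p = 1.33e-05). Next came ITGA2, the integrin alpha chain that pairs with ITGB1 to bind collagen, at 9.0, 9.18 and 9.46 with the control construct and 9.86, 10.01 and 10.45 with laminin α1, a difference of 0.89 (SE 0.15) (adjusted p = 0.00722). CENPH, a protein of the inner kinetochore, rose by 0.68, KGD4, a subunit of the oxoglutarate dehydrogenase complex, by 0.55, SLC38A9, a lysosomal amino acid sensor, by 0.51 and CCNB1, the mitotic cyclin, by 0.46 (adjusted p = 0.00693, 0.0094, 0.00658 and 0.00248). The call of KGD4 was lost without laminin α1 replicate 2 (adjusted p = 0.0533). SREK1IP1, a splicing factor partner, had 0.51 (SE 0.16) and did not pass (adjusted p = 0.117), although it did without control replicate 3 (adjusted p = 0.0482). The lowest 6 were OTULINL at -0.26, NAIP at -0.20, PTCD2 at -0.19, HTR1A at -0.15, CCDC125 at -0.14 and BASP1-AS1 at -0.11. With all 6 arrays none of these passed in limma. OTULINL was called lower without laminin α1 replicate 3 (adjusted p = 0.0352). NAIP has near-identical copies beside it, which makes its value uncertain.

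The shift ended within a few genes on 5q. From PARP8 to KGD4, 46 of 48 tested genes were positive, beside 45.6% of all genes tested, with a median of 0.35. Of these 48, 21 were called higher, beside 2.69% of all genes tested. The 21 include SGTB, which passed the level filter only through its laminin α1 arrays. KGD4 was taken as the end because it is the last gene of the interval called higher, so no interval gene after it could be. In the 12 tested genes that follow, CDK7 to TNPO1, 4 were positive and the median was -0.08. CDK7 just missed the threshold in limma (adjusted p = 0.0515). CDK7 was the last of the listed genes with a clear positive value, with 7.98, 8.20 and 8.26 with the control construct and 8.46, 8.48 and 8.46 with laminin α1, and the next tested gene, CCDC125, had 8.97, 9.11 and 9.02 with the control construct and 8.85, 8.95 and 8.89 with laminin α1. In CDK7 every laminin α1 array was above every control array, and in CCDC125 every one was below. TNPO1 is thus a listed gene that lies past the point where the positive values stop. This point was read from the same values, with no test.

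Past the edge the differences were slightly negative. Of the 50 tested genes after TNPO1, 39 were negative, with a median of -0.15, and 6 were called lower and 0 higher in limma, beside 2.59% and 2.69% of all genes tested. Over 123 genes from NAIP to LYRM7 the running median of 25 genes stayed below 0, with a median of -0.13. Of these, 16 were called lower and 1 higher in limma, beside 2.59% and 2.69% of all genes tested. The ends of this stretch were read from these same differences, and it shares genes with the blocks above, so its counts test nothing. The highest running median of the chromosome was 0.37, in the 5q part of the interval, and the lowest -0.16. All 410 tested genes after the interval had a median of -0.04. The whole of chromosome 5 had a median of -0.01, and the medians of the other autosomes and chromosome X ranged from -0.05 for chromosome 4 to 0.16 for chromosome 13. The arrays measure RNA, DNA of these cells was not analysed here, and whether the copy number of this segment differed between the groups was not tested.

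**Figure D4:**
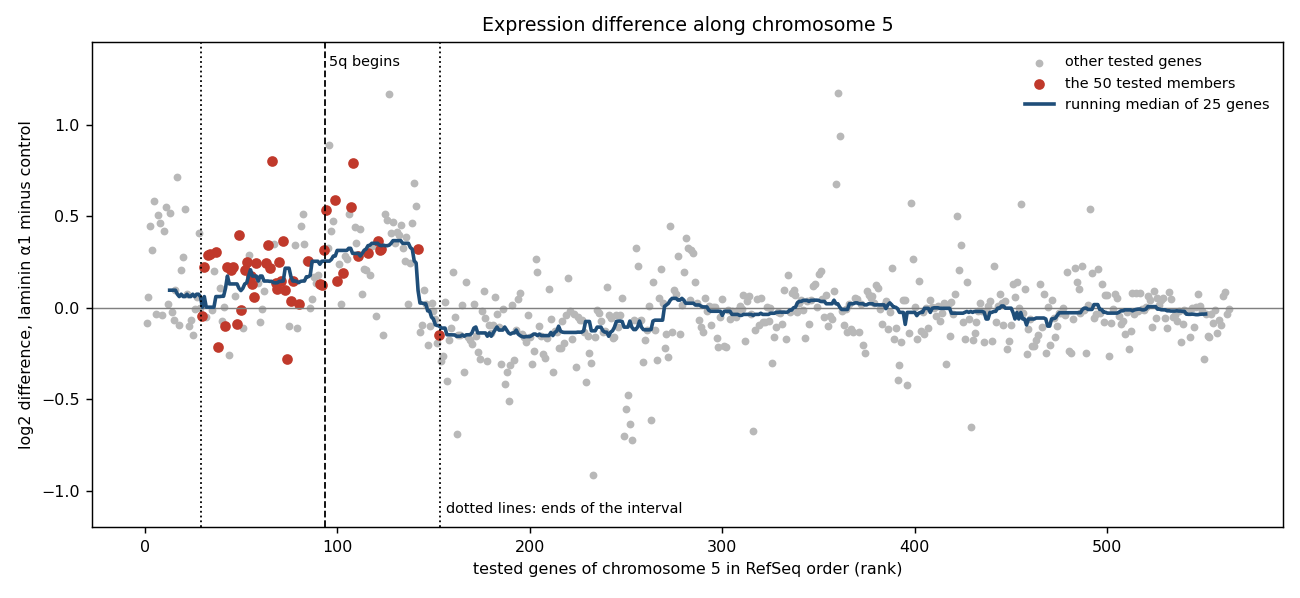
Each point is a tested gene of chromosome 5 in RefSeq order, plotted by its log2 difference, with the 50 listed genes in red and a running median of 25 genes in blue. The blue line climbs across the interval to 0.37 on 5q, drops past KGD4, lies near -0.15 in the genes after TNPO1 and returns towards 0 farther along 5q.

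The back-to-back neighbours had positive values in both genes. RAD1 and BRIX1 differed by 0.24 and 0.34, ERCC8 and NDUFAF2 by 0.30 and 0.18, and DROSHA and its neighbour C5orf22 by 0.25 and 0.29. DHX29 and MTREX, an RNA helicase, had 0.19 and 0.28, and SKP2 and LMBRD2 had 0.14 and 0.35. All 5 pairs found with starts within 1000 bases were positive in both genes, as were most genes of the stretch. RAD1 to BRIX1 holds neither box in the sequence above, and ERCC8 to NDUFAF2 holds 2 CCAAT boxes.

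Genes encoded elsewhere whose products work with those of the listed genes had a median difference near 0. A list of 101 such partners held 84 tested genes outside the interval. By limma 0 were called higher and 4 lower, beside 2.69% and 2.59% of all genes tested, and 32 of 84 were positive with a median of -0.03. At an unadjusted p under 0.05 limma had 1 higher, CUL4A at 0.24, and 10 lower, beside 7.91% and 8.81% of all genes. The 3 laminin α1 arrays had a median deviation of -0.03, -0.03 and -0.04 for these partners. Without laminin α1 replicate 3, 10 partners were called lower. The partners were not chosen by location, and some lie on the long arm beyond the interval. There 262 of 410 tested genes were negative, with a median of -0.04. These partners include CCNH at -0.14, MAPK9 at -0.16, SKP1 at 0.01 and HSD17B4, given below. The partners are thus not a comparison free of location, and its part in their differences was not tested. The 26 tested genes of the segment that the list was built around had a median of 0.23, and 24 of the 26 were positive.

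The other 7 subunits of the CCT chaperonin lay between -0.19 for CCT8 and 0.02 for CCT3, with TCP1 at -0.14, CCT6A at -0.13, CCT4 at -0.10, CCT2 at -0.02 and CCT7 at -0.02, where CCT5 had 0.31. None of the 7 passed the limma test. Of the 10 tested partners of gp130, none passed. JAK1, the main kinase bound to gp130, had -0.14 (adjusted p = 0.308), STAT3, its main transcription factor, 0.16 (adjusted p = 0.336) and SOCS3, a feedback inhibitor that STAT3 induces, 0.02 (adjusted p = 0.929). The receptors IL6R, IL11RA and CNTFR had -0.10, -0.01 and -0.05, the cytokines LIF and OSM 0.15 and -0.06, and the kinases JAK2 and TYK2 -0.06 and 0.09.

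The 4 partners called lower act in mTOR regulation and in mitochondrial or peroxisomal metabolism. DEPTOR, an inhibitor of mTOR, had values of 8.42, 8.29 and 8.33 with the control construct and 7.38, 7.38 and 7.16 with laminin α1, a difference of -1.04 (SE 0.08) (adjusted p = 3.85e-05). MTOR, MLST8, MAPKAP1 and PRR5L, its fellow partners of RICTOR, had -0.03, 0.11, 0.02 and 0.09 and did not pass. HSD17B4, an enzyme of peroxisomal fatty acid breakdown that lies on 5q beyond the interval, fell by 0.64 (adjusted p = 0.00048). ACAT1, which makes and uses ketone bodies, fell by 0.38 (adjusted p = 0.00534), and IDH2, the mitochondrial NADP-dependent isocitrate dehydrogenase, by 0.38 (adjusted p = 0.0246). The call of IDH2 was lost without control replicate 1 (adjusted p = 0.105), control replicate 2 (adjusted p = 0.0947) or laminin α1 replicate 2 (adjusted p = 0.0815).

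**Figure D5:**
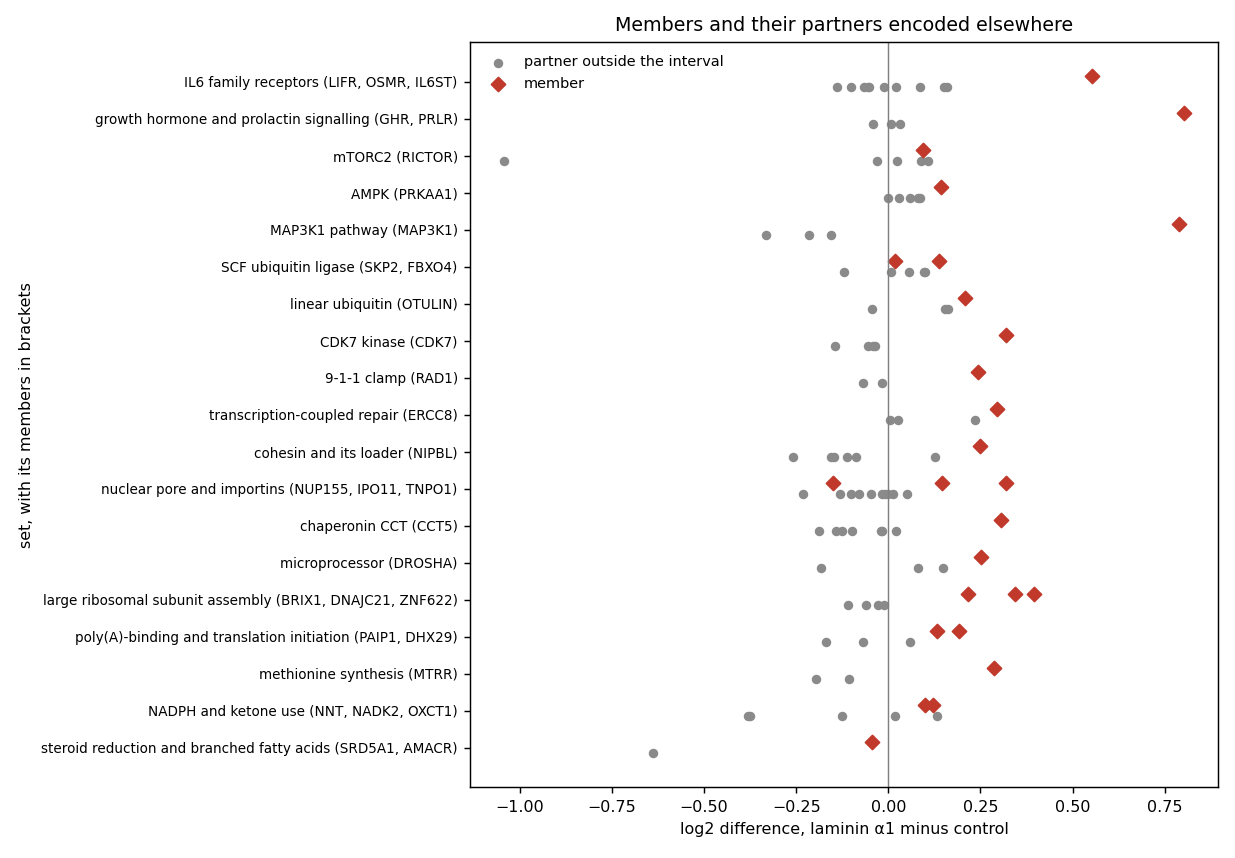
Red diamonds are tested genes of the segment and grey points their tested partners encoded elsewhere, plotted by log2 difference for each set. MAP3K1, IL6ST, PRLR, CDK7, CCT5 and the large subunit assembly genes stand to the right of all their partners. RICTOR, FBXO4, TNPO1, NNT and NADK2 lie among theirs.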

How the data were processed

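Values are the deposited log2 expression values per probe set of 6 Affymetrix arrays of total RNA. The submitters' processing notes name RMA and version 1.1 of Expression Console. Quantile normalization is a step of RMA, which would hide a shift common to all genes. The label protocols name Cy3, and each array has 1 value per probe set. Of 33297 probe sets, 19460 had 1 symbol in the platform annotation, 1754 several and 12083 no entry. Per gene the probe set with the highest mean was kept. Symbols and gene order came from RefSeq (GRCh38.p14), by Entrez number.

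Laminin α1 minus control was fitted over all 13812 genes above the filter by limma 3.58.1 (lmFit, eBayes; R 4.3.3), with Benjamini-Hochberg adjustment and a threshold of 0.05. With 3 arrays per group, their number limits the precision, and the median SE was 0.0754. Replicates are passages of one line, and p-values measure the spread between these only. Exact permutation tests of 3 against 3 cannot go below 0.1 and were not used.

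The listed genes, roles and partners were chosen with earlier results of these data known. Named were the 3 genes of highest mean level per role, the 6 highest and 6 lowest differences, all below the filter, the 6 highest and 6 lowest further genes of the interval with ITGA2 and CCNB1, and partners that passed or belong to CCT5, IL6ST or RICTOR. Others complete a count, a pair or an edge and were chosen after their values were seen. Same-numbered arrays of the 2 groups had correlations of their deviations of 0.39, 0.02 and 0.53, so the numbers were not taken as pairs. Alternatives were other filters, probe set means, centring, repeated quantile normalization, trended robust eBayes, array weights, the replicate block, a threshold of 0.01 and each array left out.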

Additional observations from a re-analysis of the deposited data

How the results depend on the processing

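Centring on array medians, repeated quantile normalization, trended robust eBayes and the mean of probe sets kept every count within 1.5 times and both medians within the spread between arrays. Without a filter the median of the further interval genes moved to 0.0613, since all 128 such genes on the array then entered, and with the filter at the 50th percentile 11 of 50 were called higher. At an adjusted p under 0.01 the calls were 200 higher and 193 lower over all genes, and 4 of the listed genes.

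Array weights, whose estimation stopped before it converged, gave 2305 higher and 2386 lower over all genes, 36 and 3 of the listed genes, 42 and 5 of the further interval genes, and 8 and 18 of the partners. With the replicate block the counts were 746 and 850, 24 and 1, 34 and 1, and 1 and 7, in the same order. The numbers do not meet the rule for pairs, as not every pair correlated above 0.1, and the cause was not tested.

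With each array left out in turn, 209 to 530 genes were higher and 192 to 681 lower. Of the listed genes 4 to 14 were higher and 0 to 1 lower, of the further interval genes 10 to 20 and 0 to 1, and of the partners 0 and 3 to 10. The median of the listed genes lay between 0.19 and 0.24. No called gene that is named changed sign under these settings. All 12 called genes of the list were also called with laminin α1 replicate 1 or 3 left out.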

Other observations

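The tip of 5p, before the listed genes, held 29 tested genes with a median difference of 0.07, 18 of them positive and 11 negative. In limma 11 were called higher and 0 lower, beside 2.69% of all genes tested. CLPTM1L, a membrane protein beside the telomerase gene, had values of 9.40, 9.32 and 9.38 with the control construct and 10.14, 10.07 and 10.03 with laminin α1, a difference of 0.71 (SE 0.06) (adjusted p = 0.000115). EXOC3, a subunit of the exocyst, rose by 0.58 (adjusted p = 0.00119), TRIP13, an ATPase of the mitotic checkpoint, by 0.55 (adjusted p = 0.00139) and NDUFS6, a subunit of respiratory complex I, by 0.54 (adjusted p = 0.00274). SLC12A7, a potassium chloride cotransporter, CEP72, a centrosomal protein, and BRD9, a bromodomain protein of chromatin remodelling, rose by 0.52, 0.46 and 0.42 (adjusted p = 0.00566, 0.00477 and 0.0149). These genes were chosen after their values were seen.

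Other genes of the same stretch did not pass. TERT, the telomerase reverse transcriptase, had 0.10 (SE 0.07) (adjusted p = 0.599), the amino acid transporter SLC6A19 -0.02 (SE 0.08) (adjusted p = 0.925) and the homeobox gene IRX1 -0.15 (SE 0.06) (adjusted p = 0.243). Of the 29, the 17 with a mean above log2 7.06 had a median difference of 0.42 and the 12 at or below it -0.03. Some of the 17 did not pass either. NSUN2, ICE1 and IRX2, with control means of 9.80, 8.47 and 8.11, differed by -0.005, 0.06 and -0.10 (limma adjusted p = 0.981, 0.870 and 0.513). Over all genes tested the same split gave -0.01 and -0.01. The median deviation of the 29 genes came to 0.05, -0.01 and -0.02 for control replicates 1, 2 and 3 and to -0.01, 0.19 and 0.10 for those of laminin α1, so the groups overlapped.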
